A study of Mus musculus with 12 samples.

Results

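The mRNAs of 10 genes that make or consume nicotinamide adenine dinucleotide (NAD) were examined in mouse tibialis anterior (TA) muscles expressing *FRAIL1*, a human long noncoding RNA. The 10 genes were chosen by symbol, as *Nampt*, *Nmrk1*, *Nmrk2*, *Nmnat1*, *Nmnat3*, *Naprt*, *Sirt1*, *Sirt3*, *Cd38* and *Parp1*, and each was found by its NCBI Gene ID among the 27179 genes of the count table. Each of the 6 wild-type male C57BL/6N mice received empty pcDNA3 plasmid in the TA of a single leg (Control muscles) and plasmid encoding full-length *FRAIL1* in the other TA (*FRAIL1* muscles), at 10 μg per muscle. The mice were obtained at 6 to 8 weeks of age and used within 2 weeks, and both TAs were taken 7 days after transfection. Plasmid was delivered by electroporation and *FRAIL1* was driven by the cytomegalovirus promoter, which is not restricted to muscle fibers. RNA was taken from whole muscle, so each value sums over fibers and all other cells of the tissue. *FRAIL1* is a human transcript and is not among the mouse genes counted, so its own level was not measured here.

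NAD carries electrons in glycolysis, fat oxidation and the citric acid cycle, and is also a substrate that sirtuins, poly(ADP-ribose) polymerases and CD38 cleave to nicotinamide. Muscle fibers rebuild most of their NAD from that nicotinamide through NAMPT, and can also enter the route from nicotinamide riboside through the NMRK kinases or from nicotinic acid through NAPRT. All these routes pass through an NMNAT adenylyltransferase, NMNAT1 in the nucleus and NMNAT3 in mitochondria.

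Total counts ranged from 44848322 to 60527385 per muscle. Levels are given as CPM, the counts of a gene scaled to library size with edgeR's TMM factors. Groups were compared in edgeR by the quasi-likelihood test, with no mouse term in the model, and p-values were adjusted by Benjamini-Hochberg over the 15502 genes that passed the expression filter (threshold 0.05). This fit ignores the pairing of the legs of a mouse. A fit with the mouse as a block, which uses the pairing, is given as an alternative. Muscle fiber markers identified the tissue as labeled: *Acta1*, skeletal actin, measured 34536 CPM in Control and 31415 CPM in *FRAIL1* muscles on average. *FRAIL1* muscle 5 stood apart from the other muscles. It had the highest summed level of satellite cell and regenerating fiber markers (1598 CPM, against 364 to 697 CPM in the other *FRAIL1* muscles and 199 to 252 CPM in Control muscles) and the lowest summed level of 10 fiber markers (134282 CPM, against 155421 to 189640 CPM and 177044 to 206490 CPM). Values without it are given where it was the lowest or highest muscle, for the 10 genes and the other NAD genes past the threshold in either fit.

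All 10 genes passed the expression filter. In the fit without a mouse term none of them differed between *FRAIL1* and Control muscles at the 0.05 threshold, against 6.28% of all genes tested. Of the 10, 2 had an unadjusted p-value under 0.05 (*Nampt* and *Parp1*), against 27.7% of all genes, and 1 had groups that did not overlap (*Nampt*), against 4.88%. The gene closest to the threshold was *Nampt*, whose level was 0.796 times that of Control muscles. With the mouse as a block *Nampt* was past the threshold, the only gene of the 10 to be so in that fit, where 14.1% of all genes tested were (7.48% higher and 6.62% lower). Log2 fold changes ranged from -0.40 (*Nmrk2*) to 0.047 (*Naprt*), with 8 below 0 (48.4% of all genes) and 2 above it (51.6%), and their median was -0.095 against 0.0096 over all genes tested.

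**Figure D1:**
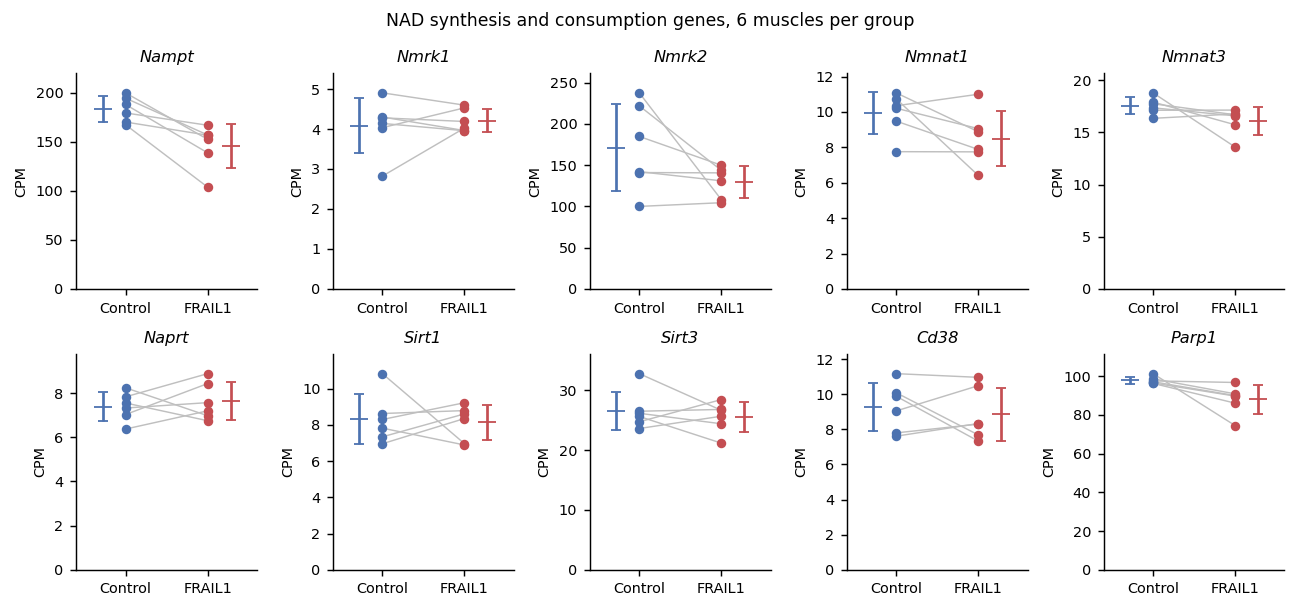
Level of the 10 genes in each muscle (CPM, y axis from 0) in 6 Control and 6 *FRAIL1* muscles; gray lines join muscles with the same replicate number, and bars beside the points give the mean and SD. *Nampt* was the only gene of the 10 whose groups did not overlap, against 4.88% of all genes tested. It measured 167.4 to 199.8 CPM in Control and 104 to 166.8 CPM in *FRAIL1* muscles.

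Per length of annotated exon, the 10 genes spanned a wide range. That length merges all annotated exons of a gene, so it can exceed the length of a single transcript and the order depends on the annotation. Dividing CPM by the length of the annotated exons, *Nmrk2* had the highest mean in Control muscles at 92.3 CPM per kilobase, followed by *Nampt* at 36.2 and *Parp1* at 18.5 CPM per kilobase. *Sirt3* followed at 4.44 CPM per kilobase, *Nmnat3* at 3.51, *Nmnat1* at 3.27, *Naprt* at 3.15, *Cd38* at 2.38, *Sirt1* at 1.56 and *Nmrk1* at 1.11 CPM per kilobase. From *Nmrk2* down to *Nmnat3*, the ranges of neighbors in this order did not overlap across the 6 Control muscles, whereas from *Nmnat3* on each range overlapped that of the next gene. The salvage enzymes *Nmrk2* and *Nampt* thus stood above *Parp1*, and the sirtuins, the NMNAT genes, *Naprt*, *Cd38* and *Nmrk1* lay well below. The order was the same in *FRAIL1* muscles except that *Naprt* lay between *Sirt3* and *Nmnat3*.

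**Figure D2:**
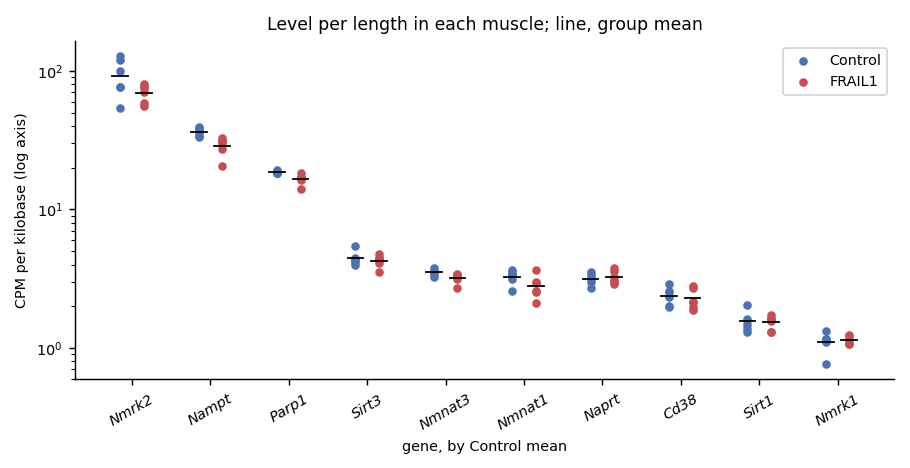
Level per length of exon in each of 12 muscles (CPM per kilobase, log axis), with genes ordered by their Control mean and a line at each group mean. *Nmrk2* (Control mean 92.3), *Nampt* (36.2) and *Parp1* (18.5) were separated from the other genes, whose Control means lay at 4.44 CPM per kilobase or below.

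*Nampt* (Gene ID 59027, chromosome 12 of GRCm38, 32820335 to 32853369, plus strand) encodes nicotinamide phosphoribosyltransferase, the rate-limiting enzyme of NAD salvage. *Nmrk2* (Gene ID 69564, chromosome 10, 81198170 to 81202265, minus strand) encodes nicotinamide riboside kinase 2, the muscle-enriched form of that kinase. The 250 bases before a RefSeq transcription start of these 2 genes with the most mRNA per length are shown 5′ to 3′ on the gene's strand, as RefSeq gives them on GRCm38.p6, because their base composition differs. The *Nampt* start is the 5′ end of the gene, whereas the *Nmrk2* start, at 81202037, lies 228 bases inside the full extent RefSeq gives for the gene, so that most of its window falls within that extent. Capitals mark GC boxes (GGGCGG, or CCGCCC on the other strand) in *Nampt* and the TATA box (TATAAA) in *Nmrk2*.
Nampt, chr12:32820085-32820334: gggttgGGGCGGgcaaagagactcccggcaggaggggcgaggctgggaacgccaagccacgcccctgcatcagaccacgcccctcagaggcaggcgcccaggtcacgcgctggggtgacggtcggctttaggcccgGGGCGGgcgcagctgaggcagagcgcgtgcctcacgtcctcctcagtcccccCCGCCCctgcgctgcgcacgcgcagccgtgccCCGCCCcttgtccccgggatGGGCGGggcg
Nmrk2, chr10:81202038-81202287: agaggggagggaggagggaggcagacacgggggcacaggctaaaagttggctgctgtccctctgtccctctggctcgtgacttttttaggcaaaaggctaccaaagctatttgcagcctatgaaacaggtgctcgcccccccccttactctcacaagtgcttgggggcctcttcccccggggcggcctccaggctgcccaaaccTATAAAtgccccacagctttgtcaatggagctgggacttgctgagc

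The *Nampt* window was 75.6% G and C, at the 96.4th percentile of 32851 windows of this length, and held 5 GC boxes and no match to TATAAA on either strand. The *Nmrk2* window was 58.8% G and C, at the 68.9th percentile, and held 1 GC box and 1 TATAAA, which begins 46 bases before that inner start. GGGCGG was found on either strand in 32.7% of all windows and TATAAA in 12.4%. Windows were found for 9 of the 10 genes, not for *Naprt*. *Nmrk2* was the only gene of the 9 whose windows held TATAAA. An E-box of the form CACGTG was found in the windows of *Sirt1* and *Parp1*, against 6.02% of all windows, and the E-box CAGCTG in that of *Nampt* alone, against 13.0%. Both E-boxes read the same on either strand, and *Nmnat1* and *Sirt3* each had windows at more than 1 start. The *Nmnat3* window also lies at a start inside the gene's full extent, by 9137 bases. A match says only that these letters are present.

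For *Nampt*, Control muscles measured 167 CPM at the lowest, 184 CPM at the median and 199.8 CPM at the highest. *FRAIL1* muscles measured 104, 155 and 167 CPM. Every *FRAIL1* muscle lay below every Control muscle, which was the case for 1.77% of all genes tested, although the highest *FRAIL1* muscle (166.8 CPM) and the lowest Control muscle (167.4 CPM) were nearly level. Control muscles averaged 183 ± 13.1 CPM (SD, n = 6) and *FRAIL1* muscles 146 ± 22.6 CPM (SD, n = 6). On the log2 scale this was a difference of -0.33 (SE 0.0968, 95% interval from -0.53 to -0.12). The edgeR adjusted p was 0.0543, and it was 0.0184 with the mouse as a block, where the log2 fold change was -0.34.

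*Nampt* was lower after *FRAIL1* in 6 of 6 mice, as were 11.7% of all genes tested (23.2% moved in 1 direction in every mouse). The difference between the muscles of a mouse on the log2 scale was -0.44, -0.10, -0.31, -0.39, -0.69 and -0.12 for mice 1 to 6. Mouse 5 had the largest difference and mice 2 and 6 the smallest. Without *FRAIL1* muscle 5 the log2 fold change of *Nampt* was -0.25 with a standard error of 0.0627, and the edgeR adjusted p was 0.0286. It was also under the threshold without *FRAIL1* muscle 2 (0.0340) or 3 (0.0384), and was not when any other muscle was left out, up to 0.107 without *FRAIL1* muscle 1. The call for *Nampt* thus depended on the fit, and its direction did not in any of 24 alternatives, 10 of which put it past the threshold.

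**Figure D3:**
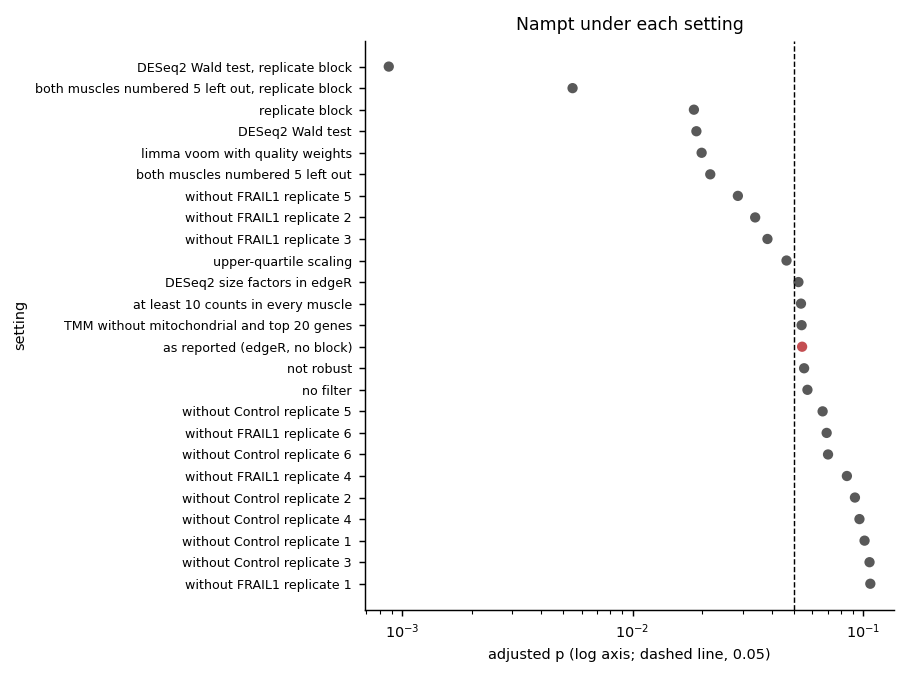
Adjusted p-value of *Nampt* (x axis, log scale; dashed line at 0.05) under the reported fit (red) and 24 alternative settings (gray), ordered by p-value. The reported value, 0.0543, lies just above the threshold, and the alternatives run from 8.8e-04 to 0.107, with 10 of them under it.

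The summed level of 12 macrophage markers ranged from 270.3 to 434 CPM in Control and from 338 to 856 CPM in *FRAIL1* muscles, that of 10 fibroblast markers from 1329 to 2439 CPM and from 2510 to 6337 CPM, and that of 10 endothelial markers from 543 to 646 CPM and from 443 to 554 CPM. Markers of adipocytes (139 to 207 CPM against 122 to 144 CPM), Schwann cells (62.7 to 118 CPM against 50.1 to 83.4 CPM) and lymphocytes (14.5 to 28.3 CPM against 13.3 to 29.6 CPM) overlapped between the groups. The sums for macrophages and endothelium also overlapped, whereas those for fibroblasts did not. All listed markers passed the filter except 1 of 12 lymphocyte markers (*Ms4a1*) and 1 of 8 adipocyte markers (*Lep*), and no marker was at 0 in every muscle. The share of counts from mitochondrial genes was 9.12% to 11.4% in Control and 6.58% to 9.90% in *FRAIL1* muscles. Past the threshold and higher were 5 of 10 regenerating fiber markers and 1 of 10 fibroblast markers, against 4.43% of all genes tested. Lower were 1 of 10 fiber markers and 2 of 10 endothelial markers, against 1.85% of all genes. The part of these shifts in the *Nampt* values was not tested, and in whole muscle fewer cells of a type and less RNA per cell cannot be told apart.

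The 5 genes whose deviations from their group means followed those of *Nampt* most closely over the 12 muscles were *Tax1bp1* (Pearson's r = 0.977), *Gatad2b* (0.974), *Rmnd5a* (0.970), *Mapk9* (0.966) and *Cul9* (0.963). Each value describes 12 muscles that share depth and preparation, and *FRAIL1* muscle 5 lay farthest from its group for *Nampt*. *Mapk9*, which encodes the stress kinase JNK2, and *Rmnd5a*, a ubiquitin ligase subunit, fell in *FRAIL1* muscles as well (log2 fold changes -0.35 and -0.37, edgeR adjusted p = 0.0161 and 0.0489). The other genes of the 5 had log2 fold changes from -0.12 (*Cul9*) to -4.1e-04 (*Gatad2b*) and did not pass the threshold.

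The kinases for nicotinamide riboside differed in level by far more than either differed between groups. *Nmrk2* measured between 99.97 and 237 CPM in Control muscles (median 163 CPM) and between 104 and 149.8 CPM in *FRAIL1* muscles (median 136 CPM). Control muscles 2, 4 and 5 were above every *FRAIL1* muscle and Control muscle 6 was below all of them, so that the groups overlapped. Means were 171 ± 52.9 CPM (SD, n = 6) and 129.6 ± 19.1 CPM (SD, n = 6), so the SD of the Control muscles was wider than the difference. *FRAIL1* over Control was -0.40 on the log2 scale (SE 0.187, 95% interval -0.81 to 0.0030), with an edgeR adjusted p of 0.183, and 0.157 with the block. Within mice the log2 difference was below 0 in 5 of 6, and ran from -1.14 in mouse 5 to 0.063 in mouse 6. The log2 fold change was -0.36 without *FRAIL1* muscle 5, -0.24 without both muscles of mouse 5, and -0.52 without Control muscle 6. Only the DESeq2 Wald test with the block put *Nmrk2* past the threshold (adjusted p = 0.0331), of 24 alternatives that reached up to 0.525.

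Of the exon bases of *Nmrk2*, 14.6% are shared with the antisense gene *Atcayos*. The strand setting of the counting is not given in the sources used here, so reads of the pair cannot be told apart there. Genes that followed *Nmrk2* most closely were *Zfand2a* (Pearson's r = 0.892 over 12 muscles), *Creld1* (0.885), *D030028A08Rik* (0.869), *Slc22a4* (0.868) and *Slc7a8* (0.866), none of which passed the threshold between groups. These values lie below those of the genes closest to *Nampt*.

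*Nmrk1* (Gene ID 225994, chromosome 19, 18632016 to 18652428), the widely expressed riboside kinase, measured between 2.82 and 4.90 CPM in Control (median 4.21 CPM) and between 3.96 and 4.596 CPM in *FRAIL1* muscles (median 4.11 CPM). The *FRAIL1* values all lay within the Control range. Means were 4.08 ± 0.686 and 4.21 ± 0.287 CPM (SD, n = 6 each), and the log2 fold change was 0.046 (95% interval -0.21 to 0.30, edgeR adjusted p = 0.840). Per length of exon, *Nmrk2* exceeded *Nmrk1* by 46.3 to 156 times in Control muscles and by 51.3 to 71.0 times in *FRAIL1* muscles. Control muscle 4, with the lowest *Nmrk1* of all muscles, gave the highest ratio.

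The NMNAT genes had lower means in *FRAIL1* muscles, without passing the threshold. *Nmnat1* (Gene ID 66454, chromosome 4, 149467569 to 149485210), the nuclear enzyme, measured between 7.76 and 11.1 CPM in Control (median 10.3 CPM) and between 6.41 and 10.9995 CPM in *FRAIL1* muscles (median 8.38 CPM). The groups overlapped over most of their range. Its log2 fold change was -0.22 (95% interval -0.48 to 0.031, edgeR adjusted p = 0.236). Stretches of at least 100 bases of its transcripts match 3 other genes at 98% identity or more, so some of its reads may not have mapped uniquely.

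*Nmnat3* (Gene ID 74080, chromosome 9, 98287433 to 98420533), the mitochondrial enzyme, measured between 16.3 and 18.8 CPM in Control (median 17.5 CPM) and between 13.6 and 17.1 CPM in *FRAIL1* muscles (median 16.6 CPM). *FRAIL1* muscles 5 and 6 were below every Control muscle and the other 4 were within the Control range. Its log2 fold change was -0.13 (95% interval -0.26 to 0.014, edgeR adjusted p = 0.226). Without *FRAIL1* muscle 5 the log2 fold changes were -0.16 for *Nmnat1* and -0.083 for *Nmnat3*.

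*Naprt* (Gene ID 223646, chromosome 15, 75890963 to 75894481), which admits nicotinic acid to the route, measured between 6.37 and 8.24 CPM in Control (median 7.44 CPM) and between 6.75 and 8.88 CPM in *FRAIL1* muscles (median 7.38 CPM). The groups overlapped and their medians were nearly level. Its log2 fold change was 0.047 (95% interval -0.15 to 0.24, edgeR adjusted p = 0.779), and 11.8% of its exon bases are shared with *Eef1d*.

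The NAD consumers included the gene with the most even Control values relative to its mean. *Parp1* (Gene ID 11545, chromosome 1, 180568891 to 180600999), encoding the main poly(ADP-ribose) polymerase of the DNA damage response, measured between 96.2 and 101.3 CPM in Control (median 97.3 CPM) and between 74.5 and 96.7 CPM in *FRAIL1* muscles (median 89.8 CPM). Only *FRAIL1* muscle 3, at 96.7 CPM, reached the Control range. *Parp1* was lower after *FRAIL1* in 6 of 6 mice (as were 11.7% of all genes tested). The means were 97.8 ± 1.87 and 87.9 ± 7.45 CPM (SD, n = 6 each). This was -0.15 on the log2 scale (SE 0.0597, 95% interval -0.28 to -0.027). The edgeR adjusted p was 0.113, and 0.101 with the mouse as a block, and *Parp1* was not past the threshold in any of 24 alternatives, whose adjusted p-values ranged from 0.0541 to 0.203. Without *FRAIL1* muscle 5 the log2 fold change was -0.11.

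*Sirt1* (Gene ID 93759, chromosome 10, 63319005 to 63339035) and *Sirt3* (Gene ID 64384, chromosome 7, 140863663 to 140882309) encode the nuclear and the mitochondrial deacetylase that use NAD as a cosubstrate. *Sirt1* measured between 6.95 and 10.8 CPM in Control (median 8.05 CPM) and between 6.88 and 9.22 CPM in *FRAIL1* muscles (median 8.47 CPM). *Sirt3* measured between 23.6 and 32.8 CPM in Control (median 25.9 CPM) and between 21.1 and 28.4 CPM in *FRAIL1* muscles (median 26.1 CPM). For both genes the groups overlapped and the *FRAIL1* median was the higher of the medians while the *FRAIL1* mean was the lower of the means. The log2 fold changes were -0.031 (95% interval -0.27 to 0.21) and -0.058 (95% interval -0.24 to 0.12), with edgeR adjusted p-values of 0.889 and 0.693. *Sirt3* was at -0.011 without *FRAIL1* muscle 5, its lowest. Of the exon bases of *Sirt3*, 12.7% are shared with *Ric8a* and *Psmd13* on the other strand, and of those of *Sirt1*, 1.22% with an antisense gene.

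*Cd38* (Gene ID 12494, chromosome 5, 43868809 to 43912374) encodes a membrane NAD glycohydrolase that is known from immune and endothelial cells. It measured between 7.61 and 11.2 CPM in Control (median 9.47 CPM) and between 7.33 and 10.97 CPM in *FRAIL1* muscles (median 8.32 CPM), and was lower in 3 of 6 mice. The groups overlapped almost fully. The log2 fold change was -0.066 (95% interval -0.33 to 0.19, edgeR adjusted p = 0.763). Over the same muscles the macrophage markers had a median log2 fold change of 0.64, with 12 of 12 above 0 (51.6% of all genes tested). None was past the threshold (6.28% of all genes), and with the block 6 were, all higher (7.48%). The endothelial markers had a median of -0.21, with 10 of 10 below 0 (48.4%). Of these, 2 were past the threshold and lower (1.85%), and 4 with the block (6.62%). The part of these shifts in the *Cd38* values was not tested.

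Of the 10 genes, 5 had their lowest value of all 12 muscles in *FRAIL1* muscle 5 (*Nampt*, *Nmnat1*, *Nmnat3*, *Sirt3* and *Parp1*). This muscle held the lowest value for 23.3% of all genes tested, and the highest for another 23.3%. None of the 10 had its highest value there. The highest values lay in Control muscles for 9 of the 10 genes, the exception being *Naprt*. Over all genes tested, Control muscles 1 to 6 held the highest value for 8.03%, 5.01%, 8.97%, 5.41%, 9.33% and 10.6%. These shares are per muscle and add up over the 6 muscles, whereas the 9 of 10 counts any Control muscle.

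**Figure D4:**
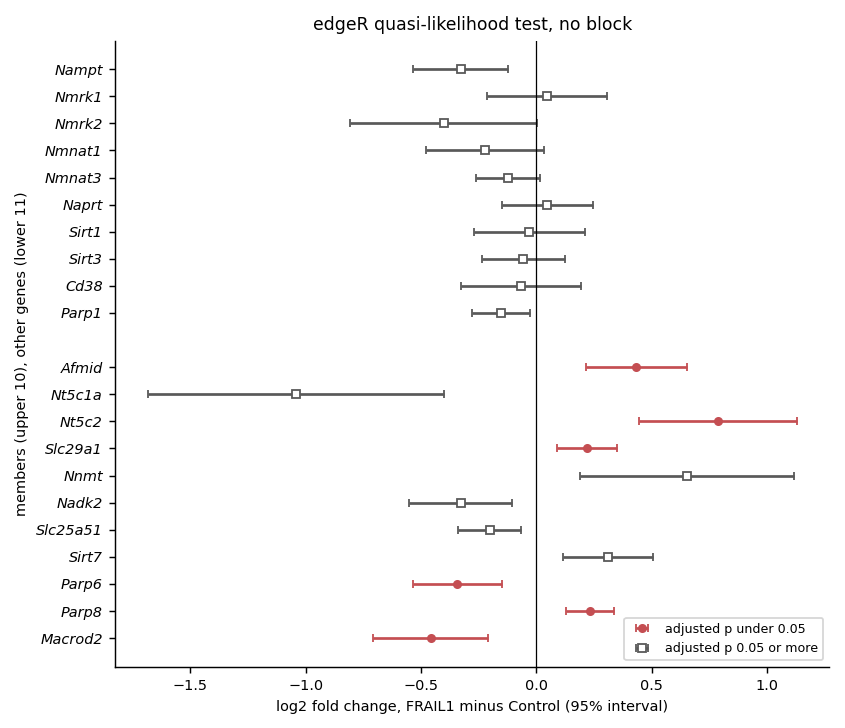
Log2 fold change of *FRAIL1* over Control muscles with its 95% interval for the 10 genes (upper) and for the 11 other genes of NAD metabolism named in the text (lower); red circles had an adjusted p-value under 0.05 in the fit without a block. None of the upper 10 was under it, and *Nampt* (-0.33) and *Parp1* (-0.15) were the genes of the 10 whose interval excluded 0.

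Of 53 other genes of NAD metabolism, written down as lists of neighboring routes, 50 were tested, and 6 of these were past the threshold (against 6.28% of all genes tested), with 4 higher (4.43% of all genes) and 2 lower (1.85%). In the blocked fit 11 were past it, against 14.1% of all genes, with 6 higher (7.48% of all genes) and 5 lower (6.62%). Their median log2 fold change was -0.024, against 0.0096 over all genes tested. The genes past the threshold belonged to different routes. Without the block, a kynurenine enzyme gene and genes of purine nucleotide and nucleoside handling were higher, and ADP-ribosylation genes moved in both directions. The nucleotidase gene *Nt5c1a* went the other way, with a log2 fold change of -1.04 (edgeR adjusted p = 0.0515, and 0.0192 with the block).

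Among genes of the de novo and nicotinic acid routes, 8 of 10 were tested and only *Afmid* passed, against 6.28% of all genes tested. *Afmid* (Gene ID 71562, chromosome 11, 117825503 to 117839908), the kynurenine formamidase of tryptophan breakdown, rose from between 4.58 and 6.67 CPM (median 5.70 CPM) to between 6.73 and 9.14 CPM (median 7.59 CPM). The groups did not overlap, as in 3.12% of all genes with *FRAIL1* muscles above Control. This was 0.43 on the log2 scale (SE 0.103, edgeR adjusted p = 0.0275), and 46.6% of its exon bases are shared with other genes, mainly *Gm20708*. Leaving out Control muscle 1, 2, 4 or 5 or *FRAIL1* muscle 1 took the adjusted p-value above 0.05, up to 0.0618 without *FRAIL1* muscle 1. It was 0.38 on the log2 scale without *FRAIL1* muscle 5, its highest. *Qprt*, which makes nicotinic acid mononucleotide from quinolinate, and *Haao* were scarce, averaging 0.300 ± 0.101 and 0.443 ± 0.184 CPM (SD, n = 6 each) across Control muscles, and *Tdo2* and *Acmsd* did not pass the filter. *Nadsyn1*, the NAD synthetase that completes both routes, had a log2 fold change of 0.0045 (edgeR adjusted p = 0.985) at 4.05 ± 0.471 CPM in Control muscles.

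Of 9 tested genes of precursor handling, 2 rose, against 4.43% of all genes tested. *Nt5c2* (Gene ID 76952, chromosome 19, 46885390 to 47015174), a cytosolic nucleotidase that prefers purine nucleotides such as IMP, rose from between 8.57 and 11.7 CPM (median 9.41 CPM) to between 11.4 and 25.7 CPM (median 16.9 CPM). Mice showed this direction in 6 of 6 cases (11.5% of all genes did), with the highest value in *FRAIL1* muscle 5 and a slight overlap between the groups. This was 0.79 on the log2 scale (SE 0.159, edgeR adjusted p = 0.0160), or 0.63 without *FRAIL1* muscle 5, and it stayed past the threshold in all 24 alternatives. *Slc29a1* (Gene ID 63959, chromosome 17, 45585200 to 45599618), the nucleoside transporter ENT1, rose from between 34.6 and 40.8 CPM (median 40.4 CPM) to between 42.2 and 51.7 CPM (median 44.95 CPM), without overlap (as in 3.12% of all genes tested). On the log2 scale it gained 0.22 (SE 0.0612, edgeR adjusted p = 0.0481), or 0.18 without *FRAIL1* muscle 5 (adjusted p = 0.0686), and it was past the threshold in 10 of 24 alternatives. Among omissions of 1 muscle these were only those of *FRAIL1* muscle 2 or 3, and without Control muscle 1, whose 34.6 CPM lay apart from the 40.2 to 40.8 CPM of the other Control muscles, the adjusted p-value was 0.0990.

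*Nt5c1a*, the AMP-preferring cytosolic nucleotidase of muscle (Gene ID 230718), averaged 1.02 ± 0.280 CPM (SD, n = 6) across Control and 0.493 ± 0.225 CPM (SD, n = 6) across *FRAIL1* muscles. It was lower in 6 of 6 mice (as were 11.7% of all genes tested), with a log2 fold change of -1.04. The edgeR adjusted p-values were 0.0515 without and 0.0192 with the block. Leaving out *FRAIL1* muscle 5 gave -0.91 (edgeR adjusted p = 0.0779, no block). *Nnmt*, which methylates nicotinamide and so withdraws it from salvage, measured 2.54 ± 0.388 and 3.99 ± 1.55 CPM. Its log2 fold change was 0.65, with edgeR adjusted p-values of 0.0761 and 0.0464 with the block, and *FRAIL1* muscles 4 and 5, at 5.62 and 6.17 CPM, were above the other muscles. Without *FRAIL1* muscle 5 the log2 fold change of *Nnmt* was 0.48 (edgeR adjusted p = 0.152, no block). *Nmnat2*, the third adenylyltransferase, known from neurons, was at 0.915 ± 0.101 CPM in Control muscles.

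None of the 8 genes of NAD phosphorylation, mitochondrial transport and repair passed the threshold in the fit without a block, against 6.28% of all genes tested. With the block 2 did, against 14.1% of all genes. *Nadk2*, the mitochondrial NAD kinase (Gene ID 68646), measured between 30.8 and 38.8 CPM in Control (median 34.9 CPM) and between 19.2 and 32.5 CPM in *FRAIL1* muscles (median 28.4 CPM). *Slc25a51*, the carrier that brings NAD into mitochondria (Gene ID 230125), measured between 76.1 and 84.0 CPM in Control (median 78.1 CPM) and between 58.7 and 78.8 CPM in *FRAIL1* muscles (median 68.4 CPM). Both were lower in 6 of 6 mice (as were 11.7% of all genes tested) and lowest in *FRAIL1* muscle 5. Their log2 fold changes were -0.33 and -0.20, with edgeR adjusted p-values of 0.0686 and 0.0662 without the block and 0.0125 and 0.0368 with it. Without *FRAIL1* muscle 5 they were -0.24 and -0.16 (edgeR adjusted p = 0.0561 and 0.0837, no block).

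Of the other sirtuins none of 5 passed without the block, against 6.28% of all genes tested. *Sirt7*, a nucleolar deacetylase (Gene ID 209011), averaged 11.2 ± 1.24 CPM (SD, n = 6) across Control and 13.8 ± 1.55 CPM (SD, n = 6) across *FRAIL1* muscles. The groups overlapped. *Sirt7* was higher in 6 of 6 mice (as were 11.5% of all genes tested), with a log2 fold change of 0.31. The edgeR adjusted p was 0.0536 without and 0.0140 with the block. It was past the threshold in 7 of 24 alternatives, which reached up to 0.122 without both muscles of mouse 5. The other glycohydrolase genes, *Bst1* and *Sarm1*, and *Enpp1*, listed with them though not a glycohydrolase, had log2 fold changes from 0.10 to 0.24. None of them passed in either fit.

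Among 17 genes of ADP-ribosylation, 1 rose (4.43% of all genes tested did) and 2 fell (1.85%). *Parp8* (Gene ID 52552, chromosome 13, 116850842 to 117026019) rose from between 21.4 and 23.7 CPM (median 22.7 CPM) to between 25.8 and 28.1 CPM (median 26.4 CPM), without overlap (as in 3.12% of all genes tested). On the log2 scale it gained 0.23 (SE 0.0496, edgeR adjusted p = 0.0182), or 0.21 without *FRAIL1* muscle 5, and it stayed past the threshold in all 24 alternatives. *Parp6* (Gene ID 67287, chromosome 9, 59617147 to 59650290) fell from between 27.6 and 31.0 CPM (median 28.9 CPM) to between 16.4 and 26.5 CPM (median 24.0 CPM), also without overlap (as in 1.77% of all genes tested). Both encode mono-ADP-ribosyltransferases, which attach single ADP-ribose units. *Parp6* differed by -0.34 on the log2 scale (SE 0.0901, edgeR adjusted p = 0.0384), and by -0.26 without *FRAIL1* muscle 5. Among omissions of 1 muscle it stayed past the threshold only without *FRAIL1* muscle 2, 3 or 5, and reached 0.0729 without Control muscle 2.

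*Macrod2* (Gene ID 72899, chromosome 2, 140395303 to 142392966), which removes single ADP-ribose units from proteins, fell from between 7.09 and 9.22 CPM (median 8.19 CPM) to between 4.23 and 7.11 CPM (median 6.22 CPM). Only *FRAIL1* muscle 3 reached the Control range. This was -0.46 on the log2 scale (SE 0.116, edgeR adjusted p = 0.0341), and -0.38 without *FRAIL1* muscle 5. It stayed past the threshold without Control muscle 2 or *FRAIL1* muscle 2, 3, 5 or 6, and not without any of the other 7, up to 0.0731 without Control muscle 3. The other 14 genes of this list did not pass the threshold in either fit. *Macrod1* was among them, at 276 ± 27.2 and 233 ± 21.8 CPM (edgeR adjusted p = 0.0763), as was *Parp3*, at 223 ± 13.9 and 193 ± 23.5 CPM (adjusted p = 0.111).

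**Figure D5:**
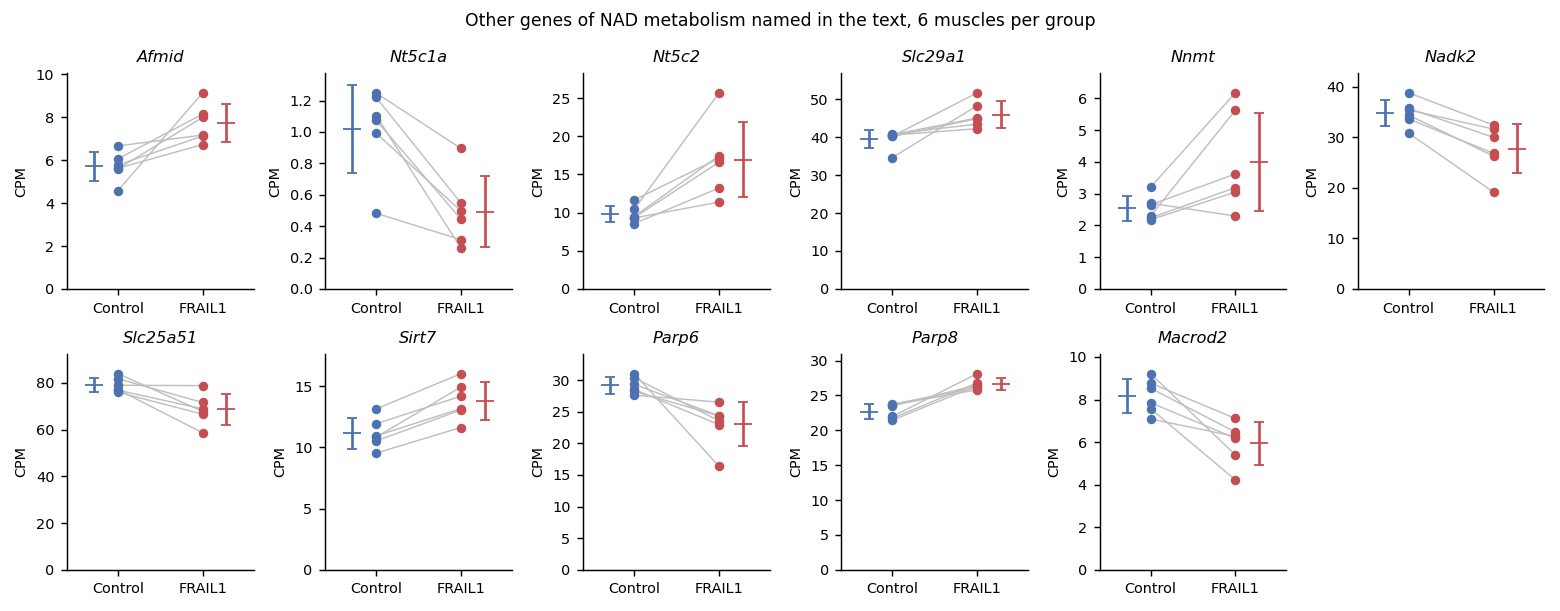
Level of the 11 other genes of NAD metabolism that passed the threshold with or without the mouse as a block (CPM, y axis from 0); gray lines join muscles with the same replicate number, and bars beside the points give the mean and SD. *Afmid*, *Slc29a1*, *Parp6* and *Parp8* had groups that did not overlap, as had 4.88% of all genes tested.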

How the data were processed

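Per the study's methods and the submitters' processing notes, the authors trimmed paired-end mRNA reads with Trimmomatic, mapped them to mm10 with STAR 2.7.8a and counted reads that mapped uniquely to annotated genes with featureCounts 2.0.1. The strand setting is not given in the sources used here. The deposited values are whole-number counts per gene for 12 muscles, listed by NCBI Gene ID, without normalization, and total counts per muscle lay between 44848322 and 60527385. No library was a copy of another of its group (chi-square per degree of freedom 14.5 or more).

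Of 27179 genes, 25275 were matched to a symbol in RefSeq's GRCm38.p6 table, and exon lengths and overlaps were taken from GENCODE M21. Genes passing filterByExpr were TMM-scaled and tested in edgeR 4.0.16 (R 4.3.3) by robust quasi-likelihood F-tests, at 0.05 after Benjamini-Hochberg adjustment. Intervals of 95% use the standard error and the degrees of freedom of that fit. Within-mouse differences are of log2(CPM + 0.05). The fit was tested on simulated data. Alternatives included a block for the mouse, DESeq2 1.42.0, limma 3.58.1 voom with quality weights, other scalings and filters, and each muscle or both muscles of mouse 5 left out, the last with the block chosen after seeing the data. Transcripts were searched with BLAST 2.17.0 for matches of 100 bases at 98% identity.

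The study design pairs the legs of 6 mice, and muscles of 1 number were taken as those of 1 mouse, which the labels do not state outright. Deviations from the group means correlated at 0.254, 0.162, 0.282, 0.263, 0.0547 and 0.185 for numbers 1 to 6, with a mean of 0.200. The mean between different numbers was -0.0400. Deviations cancel out within each group, so this second mean follows largely from the first and is no separate baseline. The 10 genes, the lists and the motifs were chosen with earlier results of these data known. Named besides the 10 genes were all genes of the NAD lists past the threshold with or without the block, the 5 genes closest to *Nampt* and to *Nmrk2*, and markers. Other genes of these lists were named after their values were seen. Protein sequences were not used here.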

Additional observations from a re-analysis of the deposited data

Results flagged for a closer look

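Of 42 groups of 6 muscles (the 10 genes and the 11 other named genes, in Control and *FRAIL1* muscles), 4 held a muscle far from the others, its gap to the nearest muscle being over 0.625 of the group's range. Chance alone gives about 1 in 20 groups. Control muscle 6 measured 32.8 CPM for *Sirt3*, against 23.6 to 26.5 CPM in the other Control muscles. The same muscle measured 0.483 CPM for *Nt5c1a*, against 0.993 to 1.25 CPM. Control muscle 1 measured 34.6 CPM for *Slc29a1*, against 40.2 to 40.8 CPM, and without it the adjusted p-value of that gene was 0.0990 by edgeR's quasi-likelihood test. *FRAIL1* muscle 5 measured 16.4 CPM for *Parp6*, against 22.9 to 26.5 CPM, and without it the adjusted p-value of *Parp6* was 0.0104 by the same test.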

How the results depend on the processing

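With the mouse as a replicate block in edgeR, 1 of the 10 genes (*Nampt*), 11 of the other NAD genes and 2186 of all genes were past the 0.05 threshold, against 0, 6 and 974 without it. The counts were 1, 12 and 2211 with the DESeq2 Wald test, 2, 14 and 2875 with that test and the block (*Nampt* and *Nmrk2*), 1, 11 and 1836 with limma voom, and 1, 10 and 2305 with the block and without both muscles of mouse 5. Upper-quartile scaling, and leaving out mouse 5 without the block, each put 1 of the 10 genes (*Nampt*) past it. Leaving out 1 muscle at a time gave 0 to 1 of the 10 genes, 2 to 10 of the other NAD genes and 364 to 2110 of all genes. In edgeR the block changed no other call among the 10 genes. The causes were not tested. Genes with a fold change near 0 changed sign when 1 muscle was left out. *Nmrk1* ranged from -0.041 (without Control muscle 4) to 0.10 on the log2 scale, *Naprt* from -0.0044 (without *FRAIL1* muscle 6) to 0.080, *Sirt1* from -0.078 to 0.059 (above 0 without Control muscle 4 or *FRAIL1* muscle 1 or 4) and *Sirt3* from -0.092 to 0.011 (above 0 without Control muscle 6). Without mouse 5, *Naprt* was at -4.9e-04, and at -0.0020 with the block. *Nmrk2*, *Nmnat1*, *Nmnat3*, *Cd38*, *Parp1* and *Nampt* kept their direction in all 24 alternatives. The 10 genes had 139 counts or more in every muscle, and the lowest count was that of *Nmrk1* in Control muscle 4.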

Other observations

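*Nnt*, which encodes the mitochondrial transhydrogenase between NADH and NADPH and is disrupted in the related C57BL/6J substrain, had counts in every muscle. It is named here after its values were seen. Counts per gene do not show whether its transcript is intact, and 47.4% of its exon bases are shared with a second *Nnt* entry of the annotation. It measured 59.2 to 114 CPM in Control and 46.8 to 101.7 CPM in *FRAIL1* muscles, with the highest value of each group in muscle 6 (114 and 101.7 CPM). The lowest value was in *FRAIL1* muscle 5 (46.8 CPM), and no fit without that muscle is given for *Nnt*. Its level was below that of the Control leg in 5 of 6 mice. Without the mouse as a block the difference was -0.17 on the log2 scale (SE 0.197), and the adjusted p-values were 0.617 without and 0.0799 with the block in edgeR's quasi-likelihood test, so neither fit put it past the threshold.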
